A study of Mus musculus with 6 samples.

Results

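Basal cells of the airway epithelium were followed through 6 of their marker genes, *Trp63*, *Krt5*, *Krt14*, *Krt15*, *Krt17* and *Ngfr*. They were chosen by name, and each was read from the brightest probe set that the array annotation ties to that 1 gene symbol. All 6 were measured, each by 1 probe set, among 19938 genes in all. Whole lungs of 3 *Tnrc6a* null embryos and 3 WT embryos at E18.5 were each hybridized to an Affymetrix mouse gene array. The null embryos were homozygous for a β-galactosidase gene trap allele of *Tnrc6a* (GW182gt/gt), which is carried by every cell of the embryo. The labels give C57Bl/6 as the background of both genotypes. *Tnrc6a* encodes a partner of Argonaute proteins in gene silencing by microRNAs.

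Basal cells are stem cells of the pseudostratified airway epithelium. They sit on the basement membrane and give rise to secretory and multiciliated cells (MCCs), and in the mouse they are found mainly in the trachea and the main bronchi. The transcription factor p63, the product of *Trp63*, specifies them. Their cytoskeleton is built of keratin pairs, with KRT5 as the type II partner of the type I keratin KRT14. A whole lung holds few such cells, so each value below is an average over all cells of the organ, and fewer basal cells and less RNA per cell cannot be told apart.

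The values are probe set signals on the log scale of the deposited table. The labels give 2 as its base, which could not be checked against scanner data, so a change is given as the difference on that scale, null minus WT, and no fold is given. *Tnrc6a* itself fell by 1.93 in the null lungs, to 5.45, 5.04 and 5.40, against 7.38, 7.13 and 7.18 in WT lungs (adjusted p = 0.00312 from limma, with Benjamini-Hochberg adjustment over all genes). It was the single gene called, 0.00502% of those tested, and without WT replicate 3 its adjusted p was 0.0552 from limma. The surfactant gene *Sftpc*, which marks distal lung epithelium, stood at 11.66 to 11.82 in null lungs and at 11.64 to 11.82 in WT lungs. Null replicate 3 and WT replicate 1 correlated across genes at 0.992, and either correlated less with each lung of its own genotype (0.979 to 0.988), so results are given below also without these lungs where they matter.

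None of the 6 basal cell genes passed the test, and in each of them the null and WT lungs overlapped. The adjusted p lay between 0.89 and 0.985 (limma). Before adjustment 0 of 6 had a limma p under 0.05, against 5.42% of all genes (2.46% higher and 2.96% lower in null lungs). Genotypes that did not overlap were found in 0 of 6 members, against 10.2% of all genes. On average 5 of the 6 members were higher in null lungs, against 49.2% of all genes, and the median difference was 0.08 over the 6 members and 0.00 over all genes. Among genes of a signal like that of a member, the share higher in null lungs ran from 43% to 76.2%.

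**Figure D1:**
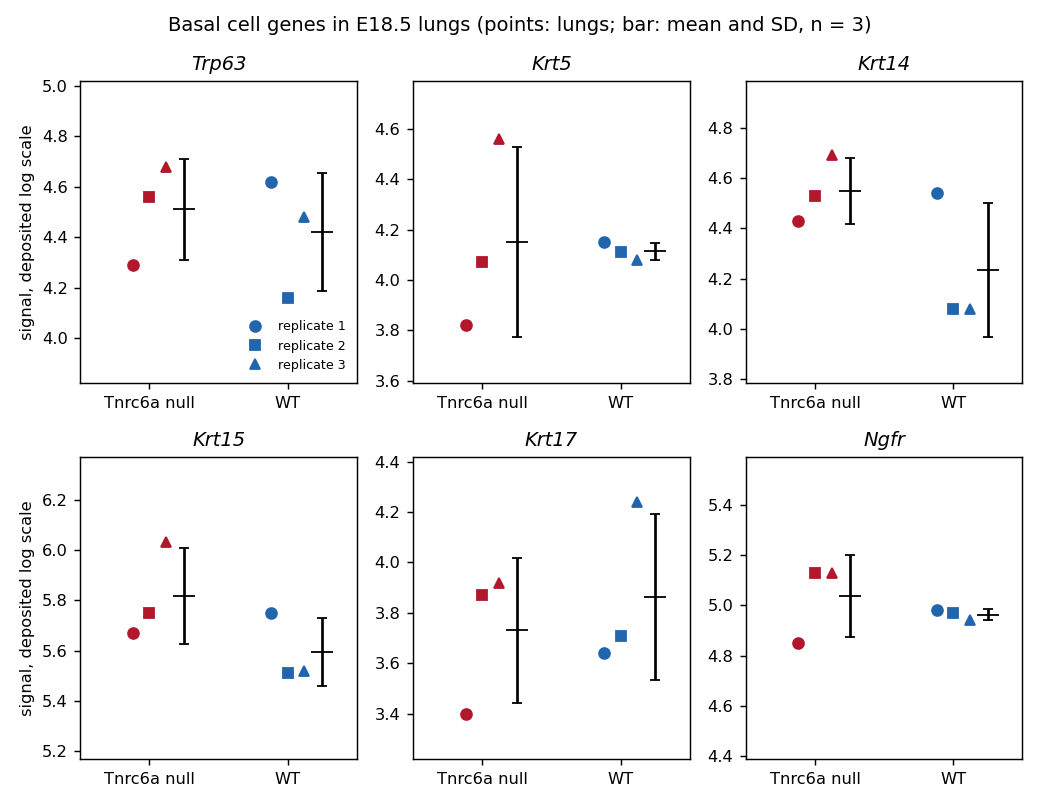
Signal of the 6 basal cell genes in each lung, on the deposited log scale, with Tnrc6a null lungs left of WT lungs. Each point is 1 lung, the shape gives its replicate number, bars are the mean and SD of 3 lungs, and all panels span the same height. The genotypes overlap in every panel, and null replicate 3 is the highest or shares the highest value in 5 of them, all but Krt17.

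*Trp63*, the transcription factor of basal cell identity, stood at 4.29, 4.56 and 4.68 in null lungs, against 4.62, 4.16 and 4.48 in WT lungs. The lowest null lung lay below the highest WT lung, against the order of the means. The difference was 0.09 (95% interval -0.27 to 0.45, adjusted p = 0.954 from limma). It turned to -0.04 without WT replicate 2, the lung with the lowest value of the 6. *Trp73*, the p53 family member required for MCC differentiation in the mouse, had a difference of 0.12 (95% interval -0.24 to 0.47), and *Trp53* was not analysed here.

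*Krt5*, the type II keratin of basal cells, stood at 3.82, 4.07 and 4.56 in null lungs, against 4.15, 4.11 and 4.08 in WT lungs. The null lungs enclosed the WT lungs on both sides, with an SD of 0.376 in null lungs and 0.0351 in WT lungs (n = 3 each). The difference was 0.04 (95% interval -0.39 to 0.46). Its direction rested on null replicate 3, since it was -0.17 without that lung and 0.20 without null replicate 1.

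*Krt14*, the type I partner of KRT5, stood at 4.43, 4.53 and 4.69 in null lungs, against 4.54, 4.08 and 4.08 in WT lungs. All null lungs lay above WT replicates 2 and 3, and WT replicate 1 lay between null replicates 2 and 3. The difference was 0.32, with a standard error of 0.158 and a 95% interval of -0.04 to 0.68 (adjusted p = 0.89 from limma). This was the largest difference among the 6 members in size.

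*Krt15*, a type I keratin found in basal cells and in stem cells of other stratified epithelia, showed nearly the same order of lungs. It stood at 5.67, 5.75 and 6.03 in null lungs, against 5.75, 5.51 and 5.52 in WT lungs. The difference was 0.22, with a standard error of 0.124 and a 95% interval of -0.06 to 0.51 (adjusted p = 0.89 from limma). Without WT replicate 1 the differences were 0.47 for *Krt14* and 0.30 for *Krt15*, with limma p-values before adjustment of 0.0102 and 0.0485. In that fit 8.68% of all genes lay under 0.05, and neither keratin passed after adjustment (adjusted p = 0.502 and 0.571). Without null replicate 3 the difference of *Krt15* was 0.12 and that of *Krt14* was 0.25. Without both lungs it was 0.40 for *Krt14*, at an unadjusted p of 0.0252 from limma, where 14.5% of all genes lay under 0.05, and 0.20 for *Krt15*.

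*Krt17*, a type I keratin of basal cells that also rises in injured epithelium, was the one member with a lower mean in null lungs. It stood at 3.40, 3.87 and 3.92 in null lungs, against 3.64, 3.71 and 4.24 in WT lungs. The difference was -0.13 (95% interval -0.61 to 0.34), the widest interval of the 6, and it turned to 0.055 without WT replicate 3 and to 0.03 without null replicate 1. *Krt14*, *Krt15* and *Krt17* lie in 1 cluster of type I keratin genes on chromosome 11, and how far their probes tell these related genes apart was not tested.

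*Ngfr* encodes the neurotrophin receptor p75, a surface protein by which basal cells are sorted and which glia also carry. It stood at 4.85, 5.13 and 5.13 in null lungs, against 4.98, 4.97 and 4.94 in WT lungs. One null lung lay below the WT lungs and the other null lungs lay above them. The difference was 0.07 (95% interval -0.19 to 0.33), the narrowest interval of the 6. Among 6 measured neurotrophins and neurotrophin receptors 4 were lower and 2 higher on average in null lungs, and none passed after adjustment. The sorting receptor gene *Sort1*, whose product pairs with p75 as a receptor of proneurotrophins, stood at 8.68, 8.82 and 8.72 in null lungs, against 9.01, 9.01 and 8.90 in WT lungs. Its difference was -0.23 (95% interval -0.40 to -0.07, adjusted p = 0.89 from limma), and the highest null lung lay below the lowest WT lung, as in 5.51% of all genes. *Ntrk2*, the receptor of BDNF, had a difference of -0.43 with a standard error of 0.304, and *Bdnf* one of 0.09.

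**Figure D2:**
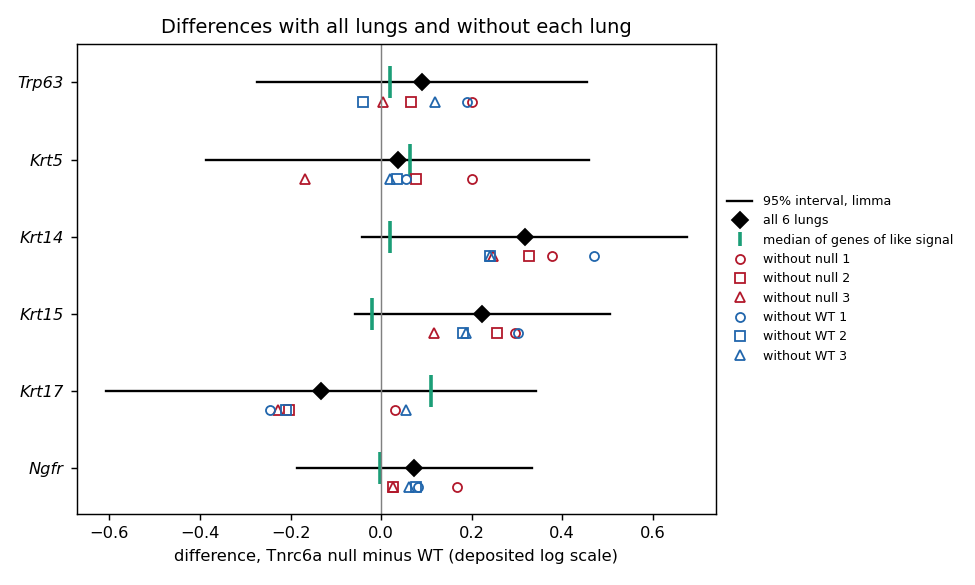
Difference of each basal cell gene, Tnrc6a null minus WT, on the deposited log scale. The black diamond and line are the value and its 95% interval from limma with 6 lungs, open symbols are the values without 1 lung, and the green mark is the median of genes of like signal. Every interval holds 0, and Trp63, Krt5 and Krt17 have values on both sides of 0 when a lung is left out.

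The difference between genotypes moved with the signal of a gene over the whole array. Of the 6 members, 5 had a mean signal below the median of all genes, and signal over background was not measured. *Krt17* (3.80), *Krt5* (4.13), *Krt14* (4.39) and *Trp63* (4.47) lay within the range of 13 suprabasal and stratified squamous genes (mean signals 2.38 to 4.60). *Ngfr* (5.0) and *Krt15* (5.71) lay above that range. How much of these signals is background was not tested. When the genes were ranked by mean signal and divided into 10 groups, the median difference was 0.15 in the dimmest group and -0.06 in the brightest. It was 0.02 in the group of *Trp63* and *Krt14*, 0.06 in that of *Krt5*, -0.02 in that of *Krt15*, 0.11 in that of *Krt17* and 0.00 in that of *Ngfr*. In these groups 57.8%, 66.3%, 43%, 76.2% and 48.8% of genes, in the same order, were higher on average in null lungs. Relative to the group medians in each lung, the differences were 0.29 for *Krt14*, 0.24 for *Krt15*, 0.07 for *Trp63* and *Ngfr*, -0.03 for *Krt5* and -0.25 for *Krt17*. On this scale 4 of 6 members were higher on average in null lungs. *Krt5* changed sign between both scales, by less than its standard error of 0.186.

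For the mean of the 6 genes, the range of the lungs within each genotype was wider than the difference between the genotypes. The mean of the 6 genes was 4.41, 4.65 and 4.84 in null lungs, against 4.61, 4.42 and 4.56 in WT lungs. Null replicate 1 was the lowest and null replicate 3 the highest, so that the null lungs enclosed the WT lungs. The mean over genotypes was 4.63 ± 0.213 in null lungs and 4.53 ± 0.0975 in WT lungs (SD, n = 3 each), a difference of 0.10. This was 0.21 without null replicate 1 and -0.0003 without null replicate 3. The highest value of the 6 lungs was in null replicate 3 for *Trp63*, *Krt5*, *Krt14* and *Krt15*, that is for 4 of 6 members against 18% of all genes, and null replicate 3 shared it with null replicate 2 for *Ngfr*.

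Across the 6 lungs *Krt14* and *Krt15* followed each other most closely of the 15 pairs of members. Their Pearson r was 0.93 and their Spearman rho 0.97 (exact permutation test, two-sided, p = 0.0056 for each, adjusted p = 0.084 over the 15 pairs), and r was 0.97 without the 2 lungs farthest from the median of *Krt14*. Of the 15 pairs 13 had a positive r, with a median of 0.62, and none passed after adjustment. *Trp63* had an r of 0.75 and a rho of 0.93 with *Krt15* (exact permutation test, p = 0.0833 and 0.0167, adjusted p = 0.345 and 0.125), and r was 0.95 without the 2 farthest lungs. For *Krt17* r was -0.28 with *Krt14*, -0.05 with *Krt15* and 0.39 to 0.43 with the other members. These values changed when 2 lungs were left out. In each pair the 2 farthest lungs were those farthest from the median of its first-named gene, so they differed between pairs. Without the 2 farthest lungs r was 0.84 between *Krt14* and *Krt17* and 0.95 between *Krt17* and *Ngfr*, but -0.67 between *Trp63* and *Krt17*, -0.71 between *Krt5* and *Krt17* and -0.63 between *Krt15* and *Krt17*. The pair of *Krt5* and *Ngfr* also turned, with r = 0.74 over 6 lungs and -0.44 without the 2 farthest. The 6 points of each pair share a lung and an array, so that an array effect would enter both genes. Both genotypes were pooled in these tests, so a shift between genotypes shared by both genes would enter r and p too.

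**Figure D3:**
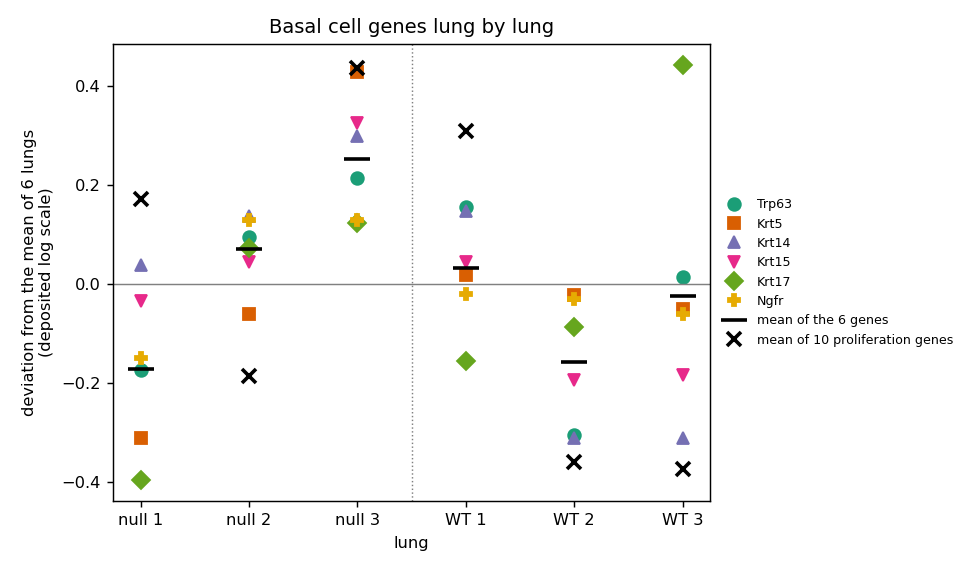
Deviation of each basal cell gene from its mean over the 6 lungs, on the deposited log scale, for Tnrc6a null lungs (left) and WT lungs (right). Coloured symbols are genes, the black bar is the mean of the 6 genes and the cross the mean of 10 proliferation genes. Null replicate 3 is high and null replicate 1 low for the mean of the 6 genes, and Krt14 and Krt15 lie low in WT replicates 2 and 3, as the proliferation genes do.

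Genes of cell proliferation varied among the lungs in an order that was close to that of *Krt14* and *Krt15* and not to that of every member. The mean of 10 proliferation genes, such as *Mki67* and *Top2a*, was 7.19, 6.83 and 7.46 in null lungs, against 7.33, 6.66 and 6.65 in WT lungs. All 10 were higher on average in null lungs, and none passed after adjustment. Before adjustment *Cdk1*, *Ccnb2* and *Mybl2* had a limma p under 0.05, 3 of 10 against 2.46% of all genes. Over the 6 lungs this mean had a Pearson r of 0.86 and a Spearman rho of 0.93 with *Krt14* (exact permutation test, two-sided, p = 0.0306 and 0.0222, adjusted p = 0.0918 and 0.133 over the 6 members). With *Krt15* the values were 0.83 and 0.84 (exact permutation test, p = 0.0306 and 0.0444, adjusted p = 0.0918 and 0.133). Without the 2 lungs farthest from the median of the proliferation mean, r was 0.69 for *Krt14* and 0.64 for *Krt15*. The other members had an r of 0.56 (*Trp63*), 0.42 (*Krt5*), 0.17 (*Ngfr*) and -0.42 (*Krt17*), and without the same 2 lungs r turned to -0.25 for *Krt5* and to -0.44 for *Ngfr*. None of the 6 passed after adjustment. Null replicate 1, the lowest lung for the mean of the 6 members (-0.17 from the mean of all lungs), lay 0.17 above it for the proliferation genes. Both genotypes were pooled here, and the proliferation genes, *Krt14* and *Krt15* were all higher on average in null lungs. Such a shared shift enters r and p, so these do not measure variation within a genotype alone. The part of proliferating cells in the keratin values was not tested.

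No gene that attaches basal cells to the basement membrane passed the test. Of 9 measured genes of the hemidesmosome and its laminin 7 were lower and 2 higher on average in null lungs, against 49.8% lower among all genes, with a median difference of -0.09. In the 5 brighter of the 10 signal groups, where 8 of these 9 genes lie, 28.5% to 43% of genes were higher and the medians were -0.02 to -0.06. Before adjustment 0 of 9 had a limma p under 0.05. *Itga3*, a laminin-binding integrin, stood at -0.23 with a standard error of 0.122, and *Dst*, a linker of the hemidesmosome to keratin, at -0.21 with a standard error of 0.117. *Col17a1*, the transmembrane collagen of the hemidesmosome, stood at 0.00 (95% interval -0.26 to 0.27), and *Itgb4*, its integrin partner, at -0.11. Several of these genes are also expressed in alveolar epithelium or vessels.

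Of 12 other genes expressed in airway basal cells, 9 were lower and 3 higher on average in null lungs, against 49.8% lower among all genes, with a median difference of -0.15, and none passed after adjustment. Of these 12 genes 9 lie above the median signal, in the same 5 brighter groups. *Jag2*, a Notch ligand, stood at 6.95, 7.08 and 7.08 in null lungs, against 7.18, 7.25 and 7.34 in WT lungs. Its difference was -0.22 (95% interval -0.41 to -0.03), and the highest null lung lay below the lowest WT lung, as in 5.51% of all genes. The adhesion molecule gene *Bcam* had a difference of -0.24 (95% interval -0.46 to -0.02), and its null and WT lungs overlapped. These 2 of 12 had a limma p under 0.05 before adjustment, against 2.96% of all genes. The water and glycerol channel gene *Aqp3* stood at 0.14 with a standard error of 0.152, and *Sox2*, a transcription factor of the airway lineage, at -0.22 with a standard error of 0.130.

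Keratins of simple epithelium, which airway and alveolar cells use outside the basal layer, showed no common direction. *Krt7* stood at 8.97, 8.99 and 9.12 in null lungs, against 9.39, 9.16 and 9.27 in WT lungs, a difference of -0.25 (95% interval -0.44 to -0.06, adjusted p = 0.89 from limma). The highest null lung lay below the lowest WT lung, as in 5.51% of all genes. *Krt7* lies in the brightest of the 10 signal groups, where the median difference was -0.06 and 28.5% of genes were higher on average. *Krt8* and *Krt18*, a keratin pair of simple epithelium, stood at -0.06 and 0.00, and *Krt19* at 0.13 with a standard error of 0.165. *Krt19* was highest in null replicate 3 (9.02) and next highest in WT replicate 1 (8.68), the lungs that were also highest for *Krt14*.

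**Figure D4:**
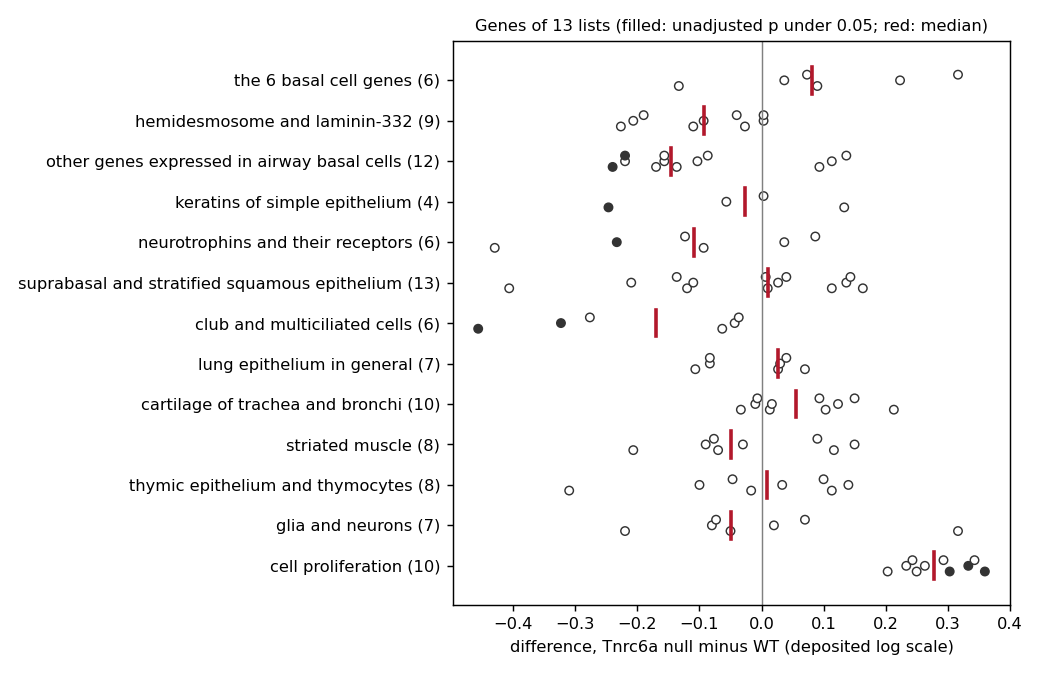
Difference of each measured gene, Tnrc6a null minus WT, on the deposited log scale, in 13 lists, with the number measured in brackets. Each point is 1 gene, filled where its limma p before adjustment was under 0.05, and the red line is the median. The median is 0.08 for the 6 basal cell genes, -0.09 and -0.15 for the lists of attachment genes and other basal cell genes, and 0.28 for proliferation.

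Other tissues that express p63 or these keratins could lie in a dissected lung with its airways. Of 13 measured genes of suprabasal and stratified squamous epithelium, 8 were higher and 5 lower in null lungs, against 49.2% higher among all genes. All 13 lie below the median signal, in groups where 48.8% to 79.3% of genes were higher. The mean of the 13 genes lay at 3.66 to 3.93 in null lungs and at 3.76 to 3.85 in WT lungs, with null replicate 3 the highest. The squamous keratin genes *Krt4* and *Krt13*, which suprabasal cells of airway and oesophagus express, had differences of 0.11 (standard error 0.258) and -0.21 (standard error 0.175). Of 8 genes of thymic epithelium and thymocytes 4 were higher and 4 lower, with a mean of 4.27 to 4.51 in null lungs and of 4.33 to 4.47 in WT lungs. *Foxn1*, the transcription factor of thymic epithelium, stood at -0.05 (standard error 0.142).

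Cartilage of trachea and bronchi goes with the airways where basal cells lie. Of 10 cartilage genes 7 were higher and 3 lower, against 49.2% higher among all genes, and 6 of the 10 lie below the median signal. Their mean was 4.72, 4.94 and 4.97 in null lungs, against 4.74, 4.86 and 4.84 in WT lungs. *Col2a1*, the collagen that defines cartilage, stood at -0.01 (standard error 0.108). Striated muscle genes had a mean of 4.43, 4.68 and 4.75 in null lungs, against 4.65, 4.60 and 4.65 in WT lungs, with 3 of 8 higher. In the null lungs both lists were lowest in replicate 1 and highest in replicate 3. So were the mean of the 6 basal cell genes and the thymus list. The other basal cell genes (6.40, 6.44 and 6.46) and the genes of lung epithelium in general (8.56, 8.62 and 8.71) had the same order. The hemidesmosome genes (7.05, 7.17 and 7.07) and the genes of club cells and MCCs (7.47, 7.45 and 7.20) did not. Nor did the lists of neurotrophins, simple keratins, suprabasal epithelium, glia and neurons, and proliferation. The cause of this order was not tested. Of 7 measured genes of glia and neurons 3 were higher and 4 lower, and *Sox10*, which marks the glia that carry *Ngfr*, stood at 0.07 (standard error 0.126). No gene of the lists of stratified squamous epithelium, thymus, cartilage, striated muscle, and glia and neurons had a limma p under 0.05 before adjustment. A log value has no zero here, so absence of a tissue cannot be read from these levels, and the part of such tissue in the basal cell values was not tested.

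All 6 genes of club cells and MCCs, which basal cells give rise to in the trachea, had a lower mean in null lungs, against 49.8% of all genes, with a median difference of -0.17, and all 6 lie in the 5 brighter signal groups. *Cyp2f2*, a cytochrome of club cells, had a difference of -0.32 (95% interval -0.55 to -0.09), and the radial spoke gene *Rsph1* had one of -0.46 (95% interval -0.69 to -0.22). *Foxj1*, the transcription factor of MCCs, stood at -0.06. None of them passed after adjustment over all genes. The list was chosen with earlier results of these data known, so the shared direction is a description. The paper on these data reports less *Rsph1* in null lungs, also by qRT-PCR.

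The microRNAs miR-203 and miR-205 are known for their ties to p63 and to basal layers, and they are shown because silencing by microRNAs is the process in which *Tnrc6a* acts. In mouse skin miR-203 represses p63 as cells leave the basal layer, and miR-205 is abundant in basal and progenitor cells of several epithelia. A mature form of each is given 5′ to 3′ from RefSeq (build GRCm38.p6), with the seed, bases 2 to 8, in capitals. The mature form from the opposite arm of each is not shown.
mmu-miR-203-3p: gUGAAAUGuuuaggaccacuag
mmu-miR-205-5p: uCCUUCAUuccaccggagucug
The seeds differ. The first lies on the plus strand at chr12:112130927-112130948 and the second on the minus strand at chr1:193507503-193507524. Both genes were picked after the values of the 6 members had been seen.

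The array measures RNA of the microRNA gene and not the mature strand. *Mir203* stood at 1.87, 1.73 and 1.81 in null lungs, against 1.63, 1.92 and 1.87 in WT lungs, a difference of 0.00 (95% interval -0.45 to 0.45). *Mir205* stood at 3.46, 3.17 and 3.18 in null lungs, against 3.05, 2.92 and 2.83 in WT lungs. Every null lung lay above every WT lung, as in 4.67% of all genes. The difference of *Mir205* was 0.34 (95% interval -0.03 to 0.70, adjusted p = 0.89 from limma). Both lie in the dimmest of the 10 signal groups, where the median difference was 0.15 and 79.3% of genes were higher on average.

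Genes with the pattern most like that of each member were taken by Pearson r over the 6 lungs among the genes above the median signal, as a description with no test. *Mdm4*, an inhibitor of p53, lay nearest to *Krt14* (r = 0.997), followed by *Zbtb26* and *Safb2*. *Sh2d5* lay nearest to *Krt15* (r = 0.997), followed by *Slc38a6* and *Mir383*. For *Trp63* these were *Morn1* (r = 0.985), *Efl1* and *Gm10139*, and for *Krt5* they were *Gm10584* (r = 0.992), the laminin gene *Lama5* and the receptor gene *Pth1r*. For *Krt17* they were *Socs1* (r = 0.994), *Uvssa* and *Plxna2*, and for *Ngfr* *Gm15998* (r = 0.996), *Macrod1* and *Atxn10*. With 6 lungs many genes reach a high r, and between 25 and 127 of at least 9966 genes lay above 0.9 for each member. No gene stood in the 3 nearest of more than 1 member.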

How the data were processed

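RNA of 6 whole lungs at E18.5 (3 *Tnrc6a* null, 3 WT) was used, grouped by the sample labels. The authors deposited 1 value for each of 35045 probe sets and lung, which the labels call log2; the submitters' processing notes name MAS5, with version, settings and scaling not given in the sources used here. Array medians lay at 4.98 to 5.03, and values were used as deposited. Precision is set by the 6 arrays, and p-values cover the spread between these embryos.

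Of the probe sets 21789 carried 1 gene symbol (1621 several, 11635 none), 21698 of which were brought to current symbols by Entrez ID (GRCm38.p6, names only). The brightest stood for each of 19938 genes. These were fitted with limma 3.58.1 in R 4.3.3 (lmFit, eBayes with trend, Benjamini-Hochberg, threshold 0.05), after a test on simulated data. Exact permutation tests used all 720 pairings (Python 3.11.15, scipy 1.17.1, pandas 2.3.3, matplotlib 3.10.9). Every member was named. From the lists of attachment genes, other basal cell genes, p53 family, simple keratins and neurotrophins any gene could be named, and from other lists those of smallest p or defining ones, besides the 3 genes most like each member. *Sftpc*, *Mki67*, *Top2a*, *Foxj1*, *Krt4*, *Krt13* and the microRNA genes were named besides, with their values seen. The members and lists were chosen with earlier results of these data known. Some genes of the lists were not analysed here. As alternatives the values were quantile normalized or centred on the array median, probe sets of a gene were averaged, genes below the median signal were dropped, the trend was left out of eBayes, the methods' t-test was run, the replicate number was used as a block, and lungs were left out. The t-test was run here unpaired, with equal variances in both genotypes. The values relative to genes of like signal were added after the data were seen.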

Additional observations from a re-analysis of the deposited data

How the results depend on the processing

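No basal cell gene passed after adjustment under any of the alternatives run (0 of 6 in each, with only *Krt15* left to test by the filter on dim genes). Without 1 lung *Krt14* stayed higher in null lungs (0.24 to 0.47), as did *Krt15* (0.12 to 0.30) and *Ngfr* (0.03 to 0.17), and no other alternative turned these 3. *Krt5* turned sign with quantile normalization over all probe sets (-0.066), relative to genes of like signal (-0.033) and without both WT replicate 1 and null replicate 3 (-0.15), and ran from -0.17 (without null replicate 3) to 0.20 without 1 lung. *Trp63* ran from -0.04 (without WT replicate 2) to 0.20, and *Krt17* from -0.25 to 0.055 (without WT replicate 3), with 0.03 without null replicate 1 and -0.34 without both lungs. The cause was not tested. Over all alternatives the smallest adjusted p, from limma or the methods' t-test, was 0.261 for *Krt14*, 0.434 for *Krt15*, 0.56 for *Krt17*, 0.746 for *Krt5*, 0.8 for *Trp63* and 0.904 for *Ngfr*. The mean of the 6 genes ran from -0.0003 to 0.21 without 1 lung, and the number of members higher on average from 4 to 6.

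Over all genes 1 was called. Without both WT replicate 1 and null replicate 3 limma called 23. With the methods' t-test after adjustment 0 were called, *Tnrc6a* at an adjusted p of 0.551, and without 1 lung the count ran from 0 to 1, with 0 without WT replicate 3 (*Tnrc6a* at an adjusted p of 0.0552 from limma). Before adjustment the limma p was under 0.05 for 1081 genes, 684 with the filter on dim genes, 2895 without both lungs, and 614 to 1730 without 1 lung (614 without WT replicate 2, 667 without WT replicate 3, 1723 without null replicate 3 and 1730 without WT replicate 1). The labels give both genotypes replicate numbers 1 to 3. Deviations of same-numbered lungs from the mean of their genotype correlated at -0.295, 0.361 and -0.163. With 3 lungs a genotype these values cannot settle whether the numbers pair the lungs. With the replicate block no member was called, and *Krt14* had an adjusted p of 0.95 from limma at a difference of 0.32.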
